A study of Mus musculus with 9 samples.

Results

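Transcripts of mitochondrial amino acid and fatty acid oxidation were followed in BV2, a mouse microglial cell line made immortal with an oncogene-carrying retrovirus, after bacterial lipopolysaccharide (LPS). The set held the genes that the deposited table annotates to at least 1 of 4 KEGG pathways (degradation of valine, leucine and isoleucine, degradation of fatty acids, the citrate cycle, and propanoate metabolism) and whose FPKM averaged at least 1 over the 9 libraries. FPKM counts fragments per gene, corrected for the length of the transcript and the size of the library. Of 6462 genes in the table, 52 carried such an annotation and 48 were members. The cholesterol gene Hmgcs1 (mean 31.9 FPKM) was left out by rule, and 4930438A08Rik (0.914), Acss1 (0.0115) and Aox3 (0.00302) lay below the level. Mlycd (1.17 FPKM) was the member nearest to that limit. The members comprised 22 genes of branched-chain amino acid degradation, 20 of fatty acid degradation, 14 of the citrate cycle and 13 of propanoate metabolism, and 17 of them belonged to more than 1 of the pathways: 13 to 2 and 4 to 3.

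The 3 groups were untreated BV2 cells (0 h) and BV2 cells given 200 ng/ml LPS for 1 h or for 12 h, with 3 libraries each. No genetic change, strain or age is named in the labels, which describe the cells as brain microglia. The samples hold no untreated cells at 1 h or 12 h, and the effect of LPS therefore cannot be told apart from that of the hours in culture. Whether the 3 libraries of each group are separate cultures is not given in the labels, and the p-values then measure only the spread among these libraries, which may be technical.

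In fatty acid oxidation, acyl-CoA synthetases activate the fatty acid, the carnitine palmitoyltransferases carry it into mitochondria, and rounds of dehydrogenation, hydration, dehydrogenation and thiolysis release acetyl-CoA. Branched-chain amino acids lose their amino group, pass through the branched-chain ketoacid dehydrogenase complex and then follow the same kind of chemistry to acetyl-CoA, acetoacetate or propionyl-CoA. Acetyl-CoA from these routes and from pyruvate is burned in the citrate cycle. Macrophages and microglia stimulated with LPS are known for raised glycolysis and an altered citrate cycle.

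The table lists genes that had been selected by the authors for a difference among these same libraries, so members and background alike are genes chosen to differ. Depth relative to untreated library 1, read from the steps between FPKM values below 0.1, was 1.09 to 1.17 in the other 8 libraries; total reads were not given in the sources used here. Microglial and macrophage markers were listed for 13 of 18 genes, none at 0 in all libraries, with a summed level of 1700 to 1820 FPKM untreated, 1680 to 1690 at 1 h and 1720 to 1830 at 12 h. Single markers moved in both directions at 12 h, among them Itgam (1.30 on the log2 scale), Adgre1 (0.75), C1qc (-1.50), Trem2 (-0.92), Cx3cr1 (-0.56) and Csf1r (-0.47), and their part in the results was not tested. Within that list P2ry12 was low (0.867 to 1.51 FPKM untreated). Of the markers of other brain cells, neuronal and endothelial or fibroblast genes were not listed, and the single oligodendrocyte gene listed, Olig2, reached at most 0.0841 FPKM. Aldoc was the only listed gene of 8 astrocyte markers, with 30.4 to 33.8 FPKM in untreated cells, then 25.2 to 25.9 and, by 12 h, 26.7 to 26.9. The summed FPKM of the whole table was 14.6% higher at 12 h than in untreated cells.

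At 12 h most of the oxidation genes stood at a lower transcript level than in untreated cells. Of 48 members, 30 were lower (62.5%) and 14 higher (29.2%) at an adjusted p under 0.05 in limma, beside 40.6% lower and 41.1% higher among the 5643 genes tested. The members' median log2 difference was -0.41, on the log2(FPKM + 1) scale used for all differences here, against 0.03 over all tested genes. The 30 lower members had all 3 libraries at 12 h below all 3 untreated ones, as did 40.9% of all tested genes and 2270 of the 2293 tested genes called lower. The median change of the 30 members' mean FPKM was -32.0%. In bulk RNA a lower level in every cell and fewer cells with the transcript cannot be told apart. After quantile normalization, which gives every library the same distribution of values, the split was 36 lower and 10 higher, because Cs, Ldha, Mdh2 and Pdhb changed sign, Pdhx was no longer called, Acly and Idh3a were called lower and Aldh3a2 higher.

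At 1 h the differences were smaller. In limma 21 members were lower (43.8%) and 2 higher (4.17%), beside 34.9% lower and 24.1% higher among all tested genes, with a member median of -0.09 against -0.03. The 2 higher members were Acsl4 and Dlst. The Dlst call was lost without untreated library 1 or 2 or without 1 h library 1 or 2 (adjusted p 0.0507 to 0.0708). It was also lost with an eBayes fit without trend (adjusted p 0.0547) and under quantile normalization (-0.02). Idh3a joined the higher members without untreated library 3 (0.10, adjusted p 0.0286) and under median-of-ratios scaling (0.09, adjusted p 0.0421). Between 1 h and 12 h 30 members fell (62.5%) and 16 rose (33.3%), beside 43.6% and 41.9% of all tested genes. The comparisons of 1 h and of 12 h with untreated cells share the untreated libraries. Acly, Idh3a and Aldh3a2 were called at neither time.

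**Figure D1:**
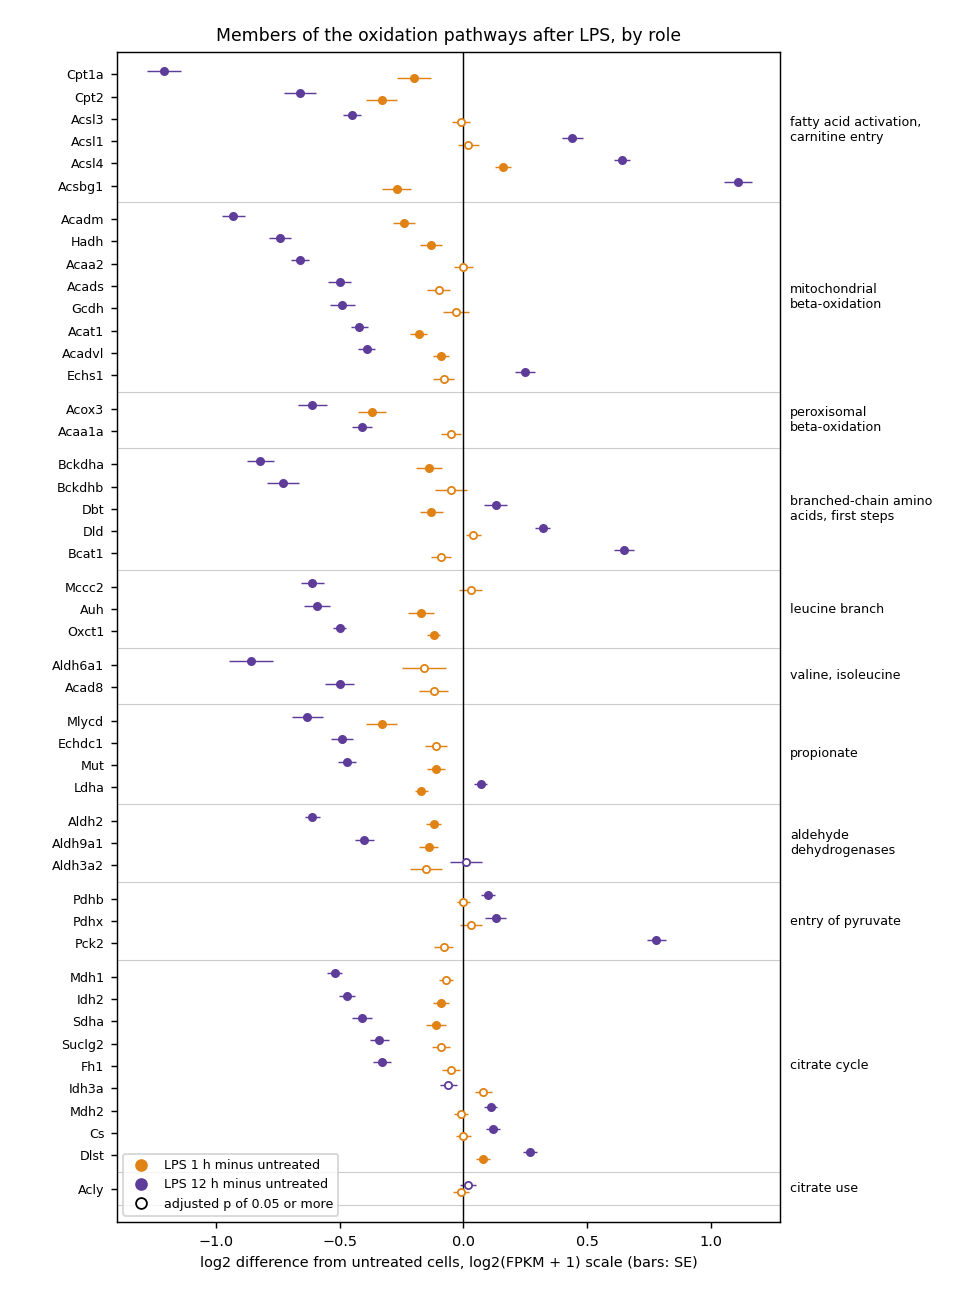
Each line is 1 of 46 members, grouped by role, and the horizontal axis is the log2 difference from untreated cells on the log2(FPKM + 1) scale, with bars for the standard error; orange marks 1 h, purple 12 h, and open circles an adjusted p of 0.05 or more. The purple points of mitochondrial beta-oxidation and the leucine branch lie left of 0 except Echs1. Those of the list for the entry of pyruvate, in which Pck2 is not an entry enzyme, lie right of 0. A gene with 2 roles is drawn once. Pdhb, Mdh2, Cs, Ldha and Acly at 12 h, and Pdhb and Dlst at 1 h, change sign under quantile normalization.

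The 4 pathways were counted one by one at 12 h, to be read against 40.6% lower and 41.1% higher among all tested genes. Branched-chain amino acid degradation had 17 of 22 genes lower and 4 higher (median -0.50), fatty acid degradation 14 of 20 lower and 4 higher (median -0.44), and propanoate metabolism 9 of 13 lower and 4 higher (median -0.47). The citrate cycle annotation, which includes the pyruvate entry genes, had 5 of 14 lower and 7 higher (median 0.06). With 35.7% lower it lay near the share of all genes, but this split depended on the scaling. Under quantile normalization Cs, Mdh2, Pdhb, Acly and Idh3a were called lower as well, and Pdhx was no longer called higher. No test compared the pathways with each other, and genes with 2 or 3 of the annotations were counted in each.

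Long-chain fatty acids are handed to mitochondria by Cpt1a, the outer-membrane carnitine palmitoyltransferase that sets the pace of their entry, and by Cpt2, its inner-membrane partner. Cpt1a measured 3.08, 3.33 and 2.97 FPKM in the untreated libraries, 2.78, 2.69 and 2.33 at 1 h, and 0.671, 0.902 and 0.765 at 12 h. Its 12 h libraries lay far below the other 6, and it had the largest fall of any member, by 1.21 on the log2 scale (SE 0.068, adjusted p 5.98e-10, limma), or -75.1% in mean FPKM. Cpt2 measured 10.9, 10.8 and 10.1 FPKM untreated, 8.47, 7.96 and 8.23 at 1 h, and 5.52, 6.74 and 6.81 at 12 h. The 3 groups of Cpt2 did not overlap, with differences of -0.33 (adjusted p 0.000449) after 1 h and -0.66 (adjusted p 1.82e-07) after 12 h. Mlycd, malonyl-CoA decarboxylase, removes the malonyl-CoA that inhibits Cpt1a. Its libraries read 1.68, 1.80 and 1.53 FPKM untreated, 1.09, 1.12 and 1.16 at 1 h, and 0.813, 0.692 and 0.684 at 12 h, differences of -0.33 (adjusted p 0.000454) and then -0.63 (adjusted p 3.13e-07).

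The acyl-CoA synthetases, which activate fatty acids for oxidation and for lipid synthesis alike, did not move as 1 group. Acsbg1, a bubblegum-family synthetase that is the only member without a mitochondrial gene ontology annotation, measured 1.53, 1.33 and 1.48 FPKM untreated, 1.12, 1.06 and 0.924 at 1 h, and 4.34, 4.29 and 4.22 at 12 h. Its 12 h libraries stood well above all others, a rise of 1.11 on the log2 scale (SE 0.058, adjusted p 2.81e-10, limma) and the largest rise among members. Acsl4, which favours arachidonic acid, measured 36.7, 39.5 and 38.7 FPKM untreated, 43.7, 42.5 and 42.5 at 1 h, and 61.0, 59.1 and 61.0 at 12 h. Its 3 groups did not overlap and it rose by 0.16 within 1 h (adjusted p 0.000967) and by 0.64 over 12 h (adjusted p 2.48e-10). Acsl1 stayed within 14.4 to 15.4 FPKM untreated and at 1 h and read 20.3, 19.2 and 21.4 at 12 h (0.44, adjusted p 2.89e-07). Acsl3, the form known from the endoplasmic reticulum and lipid droplets, went the other way. It read 28.5, 30.9 and 29.8 FPKM untreated, 29.0, 30.1 and 29.2 at 1 h, and 21.3, 22.2 and 21.2 at 12 h, a fall by 0.45 on the log2 scale (adjusted p 4.18e-08).

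The list for mitochondrial beta-oxidation had 7 of its 8 members lower at 12 h, beside 40.6% of all tested genes, with a median of -0.49. It includes the glutaryl-CoA dehydrogenase Gcdh, which is annotated to lysine degradation as well. Acadm, the medium-chain acyl-CoA dehydrogenase, measured 41.7, 41.5 and 43.5 FPKM untreated, 35.7, 35.6 and 35.7 at 1 h, and 20.2, 23.6 and 21.2 at 12 h. The groups of Acadm were fully separated, with differences of -0.24 (adjusted p 0.000519) after 1 h and -0.93 (SE 0.046, adjusted p 1.27e-10) after 12 h, the latter a change of -48.7% in mean FPKM. Hadh, the 3-hydroxyacyl-CoA dehydrogenase of the third step, measured 32.7, 31.1 and 34.3 FPKM untreated and 19.1, 19.1 and 19.4 at 12 h, a fall by 0.74 (adjusted p 1.53e-09). Acaa2, the thiolase that ends the round, measured 24.7, 25.4 and 25.9 FPKM untreated, 26.6, 24.9 and 24.4 at 1 h, and 15.8, 15.5 and 16.0 at 12 h. Acaa2 thus overlapped between untreated cells and 1 h (0.00, adjusted p 0.932) and separated at 12 h (-0.66, adjusted p 8.71e-10). The other dehydrogenases, Acads for short chains (-0.50), Acadvl for very long chains (-0.39) and Gcdh for glutaryl-CoA (-0.49), and the acetoacetyl-CoA thiolase Acat1 (-0.42) were lower at 12 h with adjusted p of 5.43e-07 or less.

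Echs1, the enoyl-CoA hydratase that works between the acyl-CoA dehydrogenases and Hadh, was the exception. It measured 35.3, 35.1 and 37.3 FPKM untreated, 33.9, 35.6 and 32.6 at 1 h, and 42.3, 41.3 and 44.9 at 12 h. All 12 h libraries lay above the other 6, with a rise of 0.25 (SE 0.041, adjusted p 6e-05, limma). Summed over the 8 genes, the level was 246 ± 0.877 FPKM untreated, 226 ± 2.10 at 1 h and 180 ± 2.53 at 12 h (SD, n = 3), a change of -27.1% at 12 h.

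**Figure D2:**
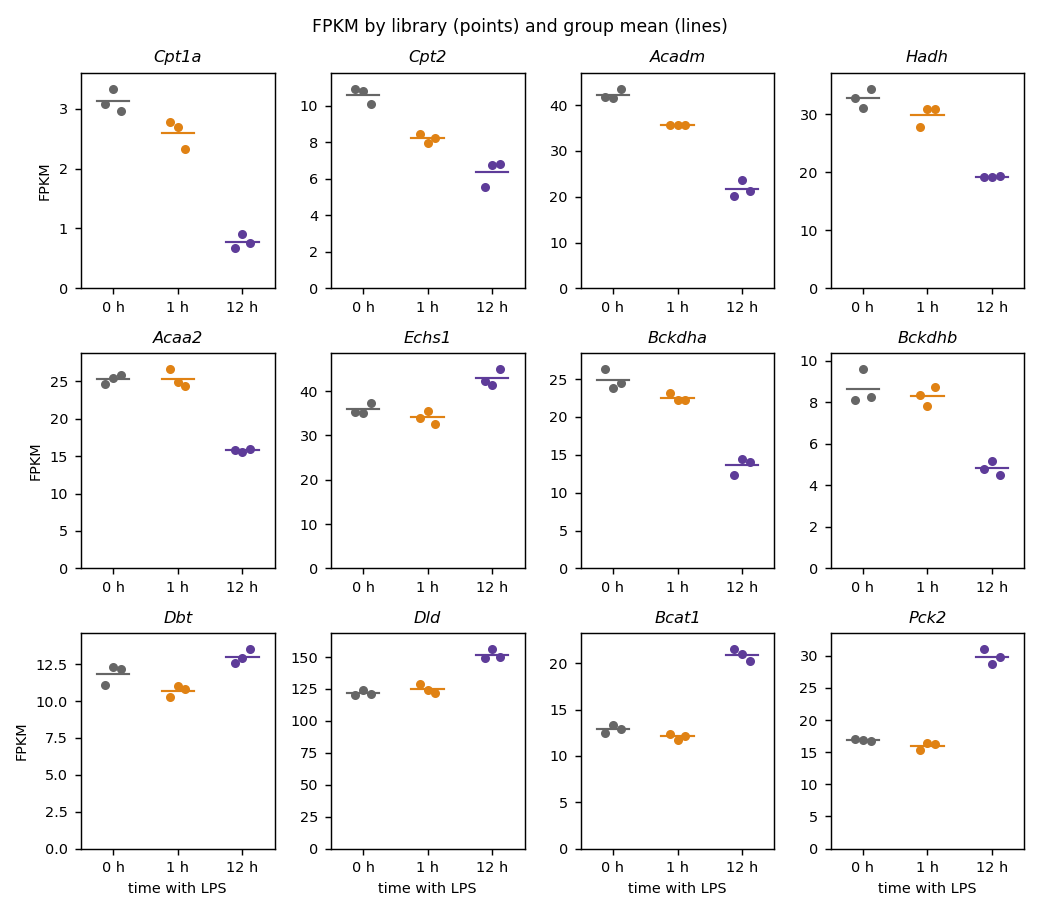
FPKM (vertical axes, from 0) of 12 members in each of the 9 libraries by hours with LPS; points are libraries and lines are group means. Cpt1a, Cpt2, Acadm, Hadh, Acaa2, Bckdha and Bckdhb have all 12 h points below the other 6, while Echs1, Dbt, Dld, Bcat1 and Pck2 have them above.

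Annotations outside the rule were counted as well, to be read against 40.6% lower and 41.1% higher among all tested genes at 12 h. Of 9 members annotated in the gene ontology terms to FAD, the cofactor of the acyl-CoA dehydrogenases, 7 were lower at 12 h, Dld was higher and 1 was not called, with a median of -0.49. There were 3 tested genes that take over the electrons of such dehydrogenases or resemble them. Etfdh, the electron transfer flavoprotein dehydrogenase (-0.86), Acad12 (-0.65) and Etfa (-0.30) were all lower at 12 h. This list of 3 is too small to be set against those shares. The 11 members annotated to the PPAR signalling pathway, named for the fatty acid-sensing nuclear receptors, were split into 6 lower and 4 higher.

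The peroxisome shortens very long and branched fatty acids with its own enzymes. Acox3, the oxidase for branched chains, measured 3.36, 3.34 and 3.10 FPKM untreated, 2.22, 2.41 and 2.24 at 1 h, and 1.81, 1.66 and 1.92 at 12 h. On the log2 scale it had the largest difference of any member at 1 h (-0.37, adjusted p 6.93e-05, limma) and stood lower again at 12 h (-0.61, adjusted p 1.52e-07). In mean FPKM its change at 1 h was -29.8%, less than the -32.7% of Mlycd. Acaa1a, the peroxisomal thiolase, measured 47.1, 52.7 and 48.8 FPKM untreated, 47.0, 48.8 and 47.9 at 1 h, and 36.8, 36.3 and 37.6 at 12 h (-0.41, adjusted p 1.64e-07). Among the 11 tested genes of peroxisome assembly and import, 8 were lower and 1 higher at 12 h, beside 40.6% and 41.1% of all tested genes. The lower ones included Abcd2 (-2.15), which brings very long-chain acyl-CoA into the organelle, and the assembly factors Pex6 (-0.64) and Pex10 (-0.56).

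Promoter windows of 300 bases, from 250 before to 50 after the annotated start site, were taken from RefSeq on GRCm38.p6 for 40 of the 48 members. The oestrogen-related receptor element TCAAGGTCA and the longer nuclear receptor site AAAGGTCA, words linked to activators of oxidation genes, were in 0 of 40 members, against 0.26% and 1.127% of 4614 tested genes with a window. The NRF1 core GCATGCGC was in 1 member (2.5%, against 6.502% of tested genes), the ETS or GABP word CCGGAAG in 6 (15.0% against 20.698%) and the E-box CACGTG in 3 (7.5% against 12.917%). All words were searched on both strands and none contains another. Printed here are the windows of 2 genes that fell and hold such a word: Acadm (chr3:153944594-153944893, minus strand) with the NRF1 core 158 bases before the start, and Cpt2 (chr4:107923540-107923839, minus strand) with the ETS word 113 bases before the start, on the reverse strand, and again 13 bases before it. Capitals mark the matched words, which are descriptions of these letters and not of bound factors.
Acadm: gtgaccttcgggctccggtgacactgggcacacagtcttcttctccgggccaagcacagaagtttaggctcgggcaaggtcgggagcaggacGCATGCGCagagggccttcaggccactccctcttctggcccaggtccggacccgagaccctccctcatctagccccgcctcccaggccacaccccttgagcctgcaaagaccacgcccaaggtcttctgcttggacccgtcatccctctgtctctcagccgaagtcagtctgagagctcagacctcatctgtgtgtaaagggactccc
Cpt2: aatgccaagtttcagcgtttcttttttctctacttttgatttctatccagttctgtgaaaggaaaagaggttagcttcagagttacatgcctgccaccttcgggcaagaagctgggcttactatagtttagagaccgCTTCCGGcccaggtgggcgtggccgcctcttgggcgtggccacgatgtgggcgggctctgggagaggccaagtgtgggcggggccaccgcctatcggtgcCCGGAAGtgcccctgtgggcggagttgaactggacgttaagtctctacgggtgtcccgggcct

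Degradation of valine, leucine and isoleucine starts with shared steps. Bcat1, the cytosolic aminotransferase, measured 12.5, 13.3 and 12.9 FPKM untreated, 12.4, 11.7 and 12.2 at 1 h, and 21.5, 21.0 and 20.3 at 12 h, a rise of 0.65 (SE 0.040, adjusted p 1.49e-09, limma). Its 12 h libraries lay above all others. The branched-chain ketoacid dehydrogenase complex follows, and its subunits moved apart. Bckdha, the alpha chain of the decarboxylase E1, measured 26.3, 23.8 and 24.5 FPKM untreated, 23.2, 22.2 and 22.2 at 1 h, and 12.4, 14.5 and 14.1 at 12 h, a fall by 0.82 at 12 h (adjusted p 2.94e-09). Bckdhb, the beta chain, measured 8.14, 9.60 and 8.24 FPKM untreated, 8.38, 7.84 and 8.77 at 1 h, and 4.81, 5.18 and 4.50 at 12 h, a fall by 0.73 (adjusted p 8.45e-08). Both E1 chains thus separated from untreated cells with changes in mean FPKM of -45.0% and -44.2% at 12 h.

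Dbt, the E2 core of the same complex, did not follow the E1 chains. It measured 11.1, 12.3 and 12.2 FPKM untreated, 10.3, 11.0 and 10.8 at 1 h, and 12.6, 12.9 and 13.5 at 12 h. The 12 h difference was 0.13 (SE 0.047, adjusted p 0.0223, limma), and it was 0.10 (adjusted p 0.0868) without 12 h library 3 and 0.08 (adjusted p 0.12) without untreated library 1. Dld, the E3 subunit that this complex shares with those for pyruvate and 2-oxoglutarate, measured 120.0, 124 and 121 FPKM untreated, 129, 124 and 122 at 1 h, and 149, 156 and 150.0 at 12 h, a rise of 0.32 (adjusted p 1.77e-07). Bckdk, the kinase that switches the complex off, was lower at 12 h (-0.37). The transport partners Slc7a5 (0.82) and Slc3a2 (1.03), which together carry large neutral amino acids into the cell, were higher at 12 h.

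In the leucine branch all 5 members were lower at 12 h, beside 40.6% of all tested genes, with a median of -0.50. A list of 5 genes is too small to be set against that share. Mccc2, the beta subunit of methylcrotonoyl-CoA carboxylase, measured 11.3, 12.1 and 11.0 FPKM untreated, 11.8, 11.8 and 11.5 at 1 h, and 6.82, 7.24 and 7.41 at 12 h (-0.61, adjusted p 1.38e-08, limma). Mccc2 overlapped with untreated cells at 1 h and lay below them at 12 h. Auh, the next enzyme, measured 4.14, 4.12 and 4.47 FPKM untreated and 3.65, 3.77 and 3.54 at 1 h. It read 2.34, 2.47 and 2.61 at 12 h (-0.59, adjusted p 9.22e-08). Oxct1, which activates ketone bodies for use and was the third most abundant member per length, measured 166, 164 and 161 FPKM untreated, 152, 151 and 149 at 1 h, and 115, 119 and 114 at 12 h, with all 3 groups apart. Its differences were -0.12 (adjusted p 0.00202) and then -0.50 (adjusted p 3.75e-10). Acat1 of this branch also serves beta-oxidation and read 42.0, 40.5 and 39.1 FPKM untreated, 36.3, 35.6 and 34.9 at 1 h (-0.18, adjusted p 0.000497), and 29.2, 30.4 and 30.2 at 12 h.

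In the valine and isoleucine branch 2 of 3 members were lower at 12 h and Echs1 was higher (0.25). Of 5 members of the propionate and methylmalonate list, 3 were lower, Dbt was higher (0.13, a call lost without 12 h library 3 or untreated library 1, with 0.10 and 0.08) and Ldha was higher (0.07, a call lost without 12 h library 3 or untreated library 2, with 0.06 and 0.05, and -0.24 under quantile normalization). These counts are too small to be set against the 40.6% lower among all tested genes, and the summed FPKM of the 2 lists changed by 5.11% and 4.36%. Each sum was mostly 1 gene. Untreated, Echs1 made up 35.9 of 46.8 FPKM in the first list and Ldha 1290 of 1330 in the second. The sums therefore do not show the course of the other genes. Aldh6a1, the methylmalonate semialdehyde dehydrogenase of valine breakdown, measured 4.47, 4.66 and 4.01 FPKM untreated, 3.72, 3.51 and 4.19 at 1 h, and 2.38, 1.55 and 2.01 at 12 h. Its untreated and 1 h libraries overlapped, and the 12 h libraries lay below both (-0.86, SE 0.089, adjusted p 5e-07, limma), a change of -54.8% in mean FPKM. Acad8, the isobutyryl-CoA dehydrogenase (-0.50), the methylmalonyl-CoA mutase Mut (-0.47), which needs vitamin B12, and the proofreading decarboxylase Echdc1 (-0.49) were lower at 12 h too. Among 8 tested genes that supply vitamin B12, biotin, lipoate or molybdenum cofactor, 4 were lower and 4 higher at 12 h, the largest differences being those of Lipt2 (-0.55), Mmab (-0.52), Abcd4 (0.47) and Hlcs (-0.42).

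Aldehyde dehydrogenases clear fatty and other aldehydes to acids. Aldh2, the mitochondrial form, measured 62.2, 61.1 and 59.4 FPKM untreated, 56.2, 55.9 and 55.6 at 1 h, and 40.0, 39.1 and 39.3 at 12 h, with differences of -0.12 at 1 h (adjusted p 0.00271, limma) and -0.61 at 12 h (SE 0.029, adjusted p 9.01e-11). Its 3 groups did not overlap and the spread within each was small. Aldh9a1 was called lower at both times, with -0.14 (adjusted p 0.00477) and then -0.40 (adjusted p 2.03e-07). Aldh3a2, the fatty aldehyde dehydrogenase, measured 3.01, 2.88 and 3.08 FPKM untreated and 2.84, 3.20 and 3.00 at 12 h, with no difference called (0.01, adjusted p 0.91).

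The list for the entry of pyruvate held Pdhb and Pdhx. It also held Pck2, which makes phosphoenolpyruvate and is not an enzyme of pyruvate entry. All 3 were called higher at 12 h, beside 41.1% of all tested genes. A list of 3 is too small to be set against that share. Under quantile normalization only Pck2 was still called higher. Pck2, the mitochondrial phosphoenolpyruvate carboxykinase, measured 17.0, 16.9 and 16.8 FPKM untreated, 15.4, 16.4 and 16.2 at 1 h, and 31.0, 28.8 and 29.8 at 12 h. The 12 h libraries of Pck2 stood clear of all others, with a rise of 0.78 (SE 0.038, adjusted p 1.19e-10, limma) or 76.5% of mean FPKM. Pdhb, a chain of pyruvate dehydrogenase, measured 86.5, 85.7 and 87.4 FPKM untreated and 93.6, 90.2 and 94.6 at 12 h, a difference of 0.10 (adjusted p 0.00391) that became -0.08 under quantile normalization. Pdhx, which anchors E3 in that complex, read 22.2, 24.7 and 23.0 FPKM untreated and 24.9, 26.4 and 25.2 at 12 h (0.13, adjusted p 0.0157). The Pdhx call was lost without 12 h library 2 (0.10, adjusted p 0.0666) or untreated library 1 (0.09, adjusted p 0.0748). It was also lost under quantile normalization (0.05, adjusted p 0.297). Of the regulators of this step, Pdpr, a subunit of pyruvate dehydrogenase phosphatase (-1.09), and the kinase Pdk1 (-0.68) were both lower at 12 h. Mpc2, a mitochondrial pyruvate carrier outside the set, was lower too (-0.46).

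The window of Pck2 (chr14:55540016-55540315, plus strand, GRCm38.p6) is printed because it rose most after Acsbg1 and holds 1 match to TGATGNAA, a word bound by C/EBP and ATF factors. The match lies on the reverse strand 103 bases before the start and is shown in capitals. This word was added after the values were seen, and it occurred in 2 of 40 members (Echs1 and Pck2, 5.0%) against 3.121% of tested genes.
Pck2: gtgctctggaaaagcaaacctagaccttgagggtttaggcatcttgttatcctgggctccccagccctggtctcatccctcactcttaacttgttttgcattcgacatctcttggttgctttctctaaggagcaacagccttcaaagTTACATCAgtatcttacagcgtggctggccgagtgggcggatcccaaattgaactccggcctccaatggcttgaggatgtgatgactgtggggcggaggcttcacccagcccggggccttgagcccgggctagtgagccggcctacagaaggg

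The 10 genes listed for the citrate cycle did not move as 1 group at 12 h. Of them 5 were lower and 4 higher, beside 40.6% and 41.1% of all tested genes. Under quantile normalization 8 were lower and 2 higher. Citrate synthase Cs, which opens the cycle, measured 124, 131 and 131 FPKM untreated and 141, 143 and 138 at 12 h (0.12, adjusted p 0.00165, limma, and -0.08 under quantile normalization). The oxidation of isocitrate is run by Idh3a with NAD and by Idh2 with NADP. Idh2 measured 80.1, 74.0 and 74.3 FPKM untreated, 71.0, 71.3 and 72.1 at 1 h, and 53.7, 55.7 and 55.0 at 12 h, a fall by 0.47 at 12 h (adjusted p 8.53e-09). Idh3a overlapped with untreated cells at 12 h, at 96.2, 99.5 and 104 FPKM untreated and 95.7, 99.4 and 91.8 at 12 h (-0.06, adjusted p 0.111); without 12 h library 2 the adjusted p was 0.032 and without untreated library 1 it was 0.0365, both with -0.09, and under quantile normalization Idh3a was called lower (-0.26, adjusted p 9.01e-06). Dlst, the E2 core of the 2-oxoglutarate dehydrogenase complex, measured 108, 108 and 110.0 FPKM untreated and 117, 117 and 113 at 1 h. Dlst read 134, 128 and 134 at 12 h, a rise of 0.27 from untreated cells (adjusted p 4.77e-07). Its rise went with that of Dld, the E3 partner.

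From succinyl-CoA to malate the cycle genes were lower. Suclg2 (-0.34), Sdha, the flavoprotein of succinate dehydrogenase, and Fh1, fumarate hydratase (-0.33), fell at 12 h. Sdha measured 117, 120.0 and 122 FPKM untreated, 113, 114 and 106 at 1 h, and 90.0, 94.6 and 84.8 at 12 h (-0.41, adjusted p 2.13e-07, limma). Its 12 h libraries were below the other 6. The malate dehydrogenases split by compartment. Mdh1, the cytosolic form, measured 148, 145 and 143 FPKM untreated, 142, 141 and 133 at 1 h, and 99.3, 103 and 101 at 12 h, a fall by 0.52 (adjusted p 8.69e-10). Mdh2, the mitochondrial form, measured 367, 352 and 359 FPKM untreated and 398, 384 and 383 at 12 h, a difference of 0.11 (adjusted p 0.00147) that became -0.07 under quantile normalization. Summed over the 10 genes listed for the cycle, the level was 1263 ± 5.94 FPKM untreated and 1236 ± 15.8 at 12 h (SD, n = 3), a change of -2.16%. This list includes the cytosolic Mdh1, whose mean went from 145 to 101 FPKM. The sum therefore does not describe the mitochondrial enzymes alone.

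**Figure D3:**
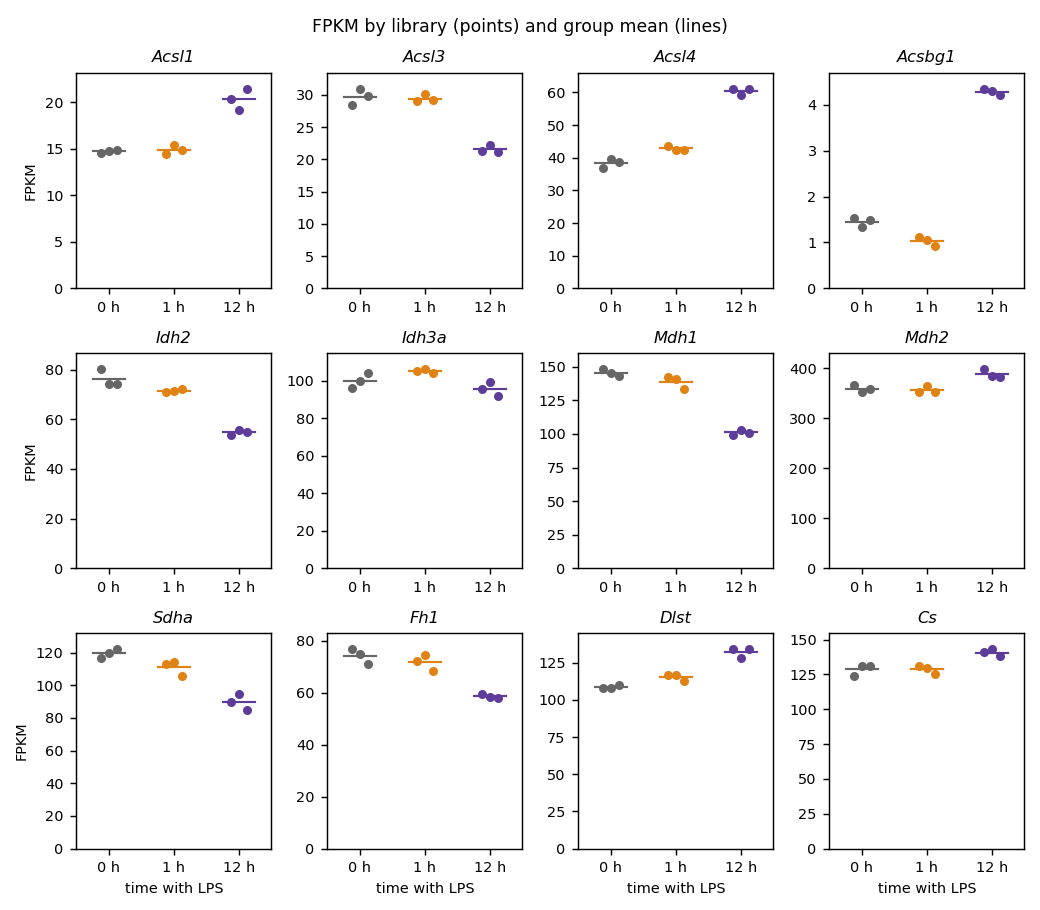
FPKM (vertical axes, from 0) of 4 acyl-CoA synthetases and 8 citrate cycle genes in each of the 9 libraries by hours with LPS; points are libraries and lines are group means. Acsl3, Idh2, Mdh1, Sdha and Fh1 have all 12 h points below the other 6, Acsl1, Acsl4, Acsbg1, Mdh2, Dlst and Cs have them above (Mdh2 and Cs change sign under quantile normalization), and Idh3a at 12 h overlaps the untreated points.

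Ldha and Acly belong to neighbouring uses of pyruvate and citrate. Ldha, which turns pyruvate into lactate and was the most abundant member per length, measured 1310, 1250 and 1300 FPKM untreated, 1140, 1150 and 1140 at 1 h, and 1350, 1320 and 1380 at 12 h. It was lower at 1 h (-0.17, adjusted p 5.17e-05, limma). At 12 h it was 0.07 above untreated cells (adjusted p 0.0175), a call lost without 12 h library 3 (0.06, adjusted p 0.0789) or untreated library 2 (0.05, adjusted p 0.0895) and turned to -0.24 by quantile normalization. Acly, which makes cytosolic acetyl-CoA from citrate, stayed at 49.4 to 53.6 FPKM in all 9 libraries (0.02 at 12 h, adjusted p 0.516, and -0.10 under quantile normalization). Without Ldha, the summed level of the other 47 members was 2233 ± 4.55 FPKM untreated, 2166 ± 29.9 at 1 h and 2059 ± 12.5 at 12 h (SD, n = 3), a change of -7.83% at 12 h.

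Ratios between partners within a library do not depend on a scaling that multiplies all FPKM values of a library. They restate the values given above, for 5 pairs chosen after those values were seen, and are given as a description. The ratio of Dbt to Bckdha was 0.421, 0.518 and 0.497 untreated, 0.443, 0.497 and 0.486 at 1 h, and 1.02, 0.894 and 0.955 at 12 h. E2 and E1 alpha transcripts per length were thus close to equal at 12 h, whereas E1 alpha had been the more abundant. The ratio of Mdh2 to Mdh1 went from 2.47 ± 0.0437 untreated to 3.85 ± 0.142 at 12 h, that of Idh3a to Idh2 from 1.31 ± 0.101 to 1.74 ± 0.0653, that of Acsl4 to Acsl3 from 1.29 ± 0.0107 to 2.80 ± 0.122, and that of Echs1 to Acadm from 0.850 ± 0.00597 to 1.99 ± 0.206 (SD, n = 3). In all 5 ratios the 12 h libraries lay above the untreated ones. The 2-sided exact permutation p was 0.1 for each, the smallest that 3 against 3 libraries allow, and 0.125 after Benjamini-Hochberg adjustment over 10 tests. The pairs were picked with these values known, so these p-values test nothing beyond the description.

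**Figure D4:**
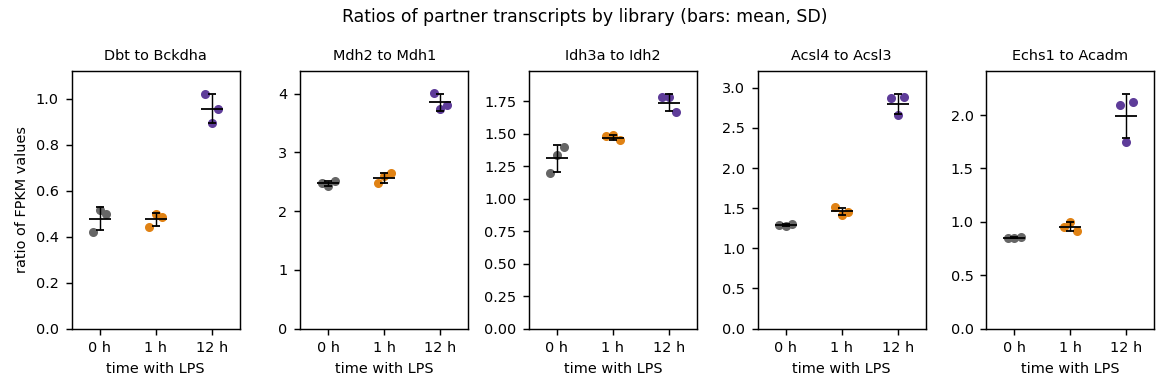
Ratio of the FPKM values of 2 partner genes (vertical axes, from 0) in each library by hours with LPS, for 5 pairs; points are libraries and bars show the mean and SD of 3 libraries. All 12 h points lie above the untreated points in each panel, from a mean of 0.478 to 0.957 for Dbt to Bckdha.

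The early differences differed in how firmly they held. Of 23 members called at 1 h, 12 kept their call under every alternative in which they were tested; the level filter of 5 FPKM left 41 members and took out Acox3 and Mlycd of these 12. These were Acsl4, which was higher, and 11 that were lower, among them Acadm, Acat1, Acox3, Aldh2, Aldh9a1, Cpt2, Ldha, Mlycd and Oxct1. Acsbg1 (-0.27, adjusted p 0.00135, limma) lost the call under quantile normalization alone (-0.09, adjusted p 0.188). Cpt1a (-0.20, adjusted p 0.0229) lost it without 1 h library 3 (-0.14, adjusted p 0.105) or untreated library 2 (-0.16, adjusted p 0.0906) under quantile normalization (-0.05, adjusted p 0.529) and with a pseudocount of 0.1 (-0.26, adjusted p 0.0544). Auh (-0.17, adjusted p 0.0121) lost it without untreated library 3 (-0.14, adjusted p 0.0564) and under quantile normalization (-0.08, adjusted p 0.19). Dbt (-0.13, adjusted p 0.0256) lost it without 1 h library 1 or untreated library 2 or 3 (adjusted p 0.0891 to 0.102).

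Further early calls were lost without single libraries. Hadh (-0.13, adjusted p 0.0248, limma) lost its call without 1 h library 1 or untreated library 1 or 3 (adjusted p 0.0514 to 0.135). Mut (-0.11) lost it without 1 h library 3 or untreated library 3 (adjusted p 0.0658 and 0.0712), and Sdha (-0.11) without 1 h library 3 or untreated library 2 or 3 (adjusted p 0.0599 to 0.128). Bckdha (-0.14) lost it without 1 h library 2 or 3 or untreated library 1 or 3 (adjusted p 0.0657 to 0.166), Idh2 (-0.09) without any 1 h library or untreated library 1 (adjusted p 0.0501 to 0.168), and Acadvl (-0.09) without 1 h library 1 or 2, untreated library 1 or 2, or 12 h library 1 (adjusted p 0.0539 to 0.158). An eBayes fit without trend also ended the calls of Sdha, Bckdha, Idh2 and Acadvl (adjusted p 0.0561 to 0.0665), and median-of-ratios scaling those of Bckdha, Idh2 and Acadvl (adjusted p 0.0563 to 0.0687). Bckdha lost its call with no filter on level too (adjusted p 0.0671), Acadvl in a fit of only the 6 libraries compared (adjusted p 0.0568), and both with a replicate block (adjusted p 0.0554 and 0.0575). Conversely, Acad8, Aldh3a2, Echdc1 and Mdh1 passed as lower without 1 h library 1 (adjusted p 0.0123 to 0.0493). Acads did so without untreated library 3 (adjusted p 0.0301), Bcat1 without untreated library 1 (adjusted p 0.0477), and Suclg2 without 1 h library 3, untreated library 2 or 12 h library 3 (adjusted p 0.0347 to 0.0498).

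At 12 h 38 of 44 calls held under every alternative in which the member was tested, among them all 30 lower members and 8 of the 14 higher ones. The 8 were Acsbg1, Pck2, Bcat1, Acsl4, Acsl1, Dld, Dlst and Echs1. The level filter of 5 FPKM took out Cpt1a, Mlycd, Acox3, Auh, Aldh6a1 and Acsbg1 of these 38.

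Genes around the set were counted from lists of transporters, regulators, other amino acid pathways and the respiratory chain. These small counts are to be read against 40.6% lower and 41.1% higher among all tested genes at 12 h. Of 15 tested genes that carry or bind fatty acids, carnitine, pyruvate, dicarboxylates or large amino acids, 7 were lower and 5 higher at 12 h, with Fabp4, a fatty acid-binding protein, at 1.29 and Acot2, a mitochondrial acyl-CoA thioesterase, at -0.72. Of 12 regulators 7 were lower and 4 higher, among them the deacylase Sirt5 (-0.45), the nuclear receptor Ppard (0.38) and the oestrogen-related receptor Esrra (0.32). In other amino acid breakdown 4 of 11 were lower and 5 higher, led by Kmo of the kynurenine route (-0.90), Tst (-0.76), the alanine aminotransferase Gpt2 (0.73) and Aldh18a1 of proline synthesis (0.53). Of 10 respiratory chain genes tested, of 77 in the list, 7 were lower and 2 higher, with Ndufs1 (-0.47), Ndufa5 (-0.41), Uqcrh (-0.39) and Cycs, cytochrome c (0.39). Acod1, which diverts aconitate from the cycle to itaconate, measured 7.47 to 9.31 FPKM untreated and rose by 3.75 at 1 h and 6.10 at 12 h. The dicarboxylate carrier Slc25a10 was lower at 12 h (-0.47).

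Among the genes just outside the level rule, 4930438A08Rik, annotated to branched-chain amino acid degradation among other amino acid pathways, read 0.0181, 0 and 0.0164 FPKM untreated, 0, 0 and 0.10 at 1 h, and 2.15, 3.10 and 2.84 at 12 h. It was not tested. Hmgcs1, the cytosolic enzyme of cholesterol synthesis that shares the leucine annotation, read 29.1, 31.2 and 31.1 FPKM untreated, 47.4, 45.0 and 42.4 at 1 h, and 20.7, 21.1 and 19.6 at 12 h. It was higher at 1 h (0.54, adjusted p 1.33e-07, limma) and lower at 12 h (-0.55, adjusted p 3.04e-08).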

How the data were processed

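RNA of 9 libraries of BV2 cells was sequenced, 3 untreated and 3 each after 1 h and 12 h with LPS. Per the labels, libraries came from TRIzol-extracted RNA and a TruSeq Stranded mRNA kit. Tools listed in the submitters' processing notes are DESeq, HTSeq, Cufflinks, HISAT2 and Trimmomatic, with neither version nor role; the notes give GRCh38, a human build, for these mouse genes, and which build was used remains unclear. The authors deposited FPKM per gene and library. A p-value, a q-value, a score and a flag stand beside each gene, per the file headers; these were not used to call genes. The flag was 1 in every gene and the highest deposited q-value was 0.0999, so listed genes were selected on these libraries and adjusted p-values give no false discovery rate over the transcriptome. Other genes were not analysed here, and 0 columns of sample values were left unmapped.

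FPKM was compared as log2(FPKM + 1), which shrinks differences of low genes, for the 5643 genes whose mean FPKM reached 1 (819 were left out; all 48 members passed, and since the mean ran over all 9 libraries a gene high in 1 group could pass). Groups were fitted in 1 linear model with limma 3.58.1 in R 4.3.3 (eBayes with trend), and p-values were adjusted by Benjamini-Hochberg over all tested genes and called under 0.05. On simulated data for 12 h against untreated (5643 genes, 200 of them changed) the fit recovered 0% of log2 changes of 0.1, 87.5% of 0.3 and 99.5% of 1, and since far more genes changed in the data these shares do not carry over. Values in libraries of 1 group correlated at 0.9981 to 0.9986 across genes. Tables were handled in Python 3.11.15 with pandas 2.3.3.

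The members, role lists, neighbour lists and promoter words were chosen with earlier results of these data known; Pdhx was put into its role by hand, and TGATGNAA was added after values were seen. Values by library are given for the 10 largest called rises and falls at each time whose groups did not overlap, and for the most abundant and most changed member of each role. Of the neighbour lists the 4 largest called differences are named. Bckdk, Esrra, Slc25a10 and Mpc2 were named after their values were seen. The values of 2 members and 1 neighbour gene are not reported here, although they stay in the counts. The role counts overlap, since Acat1, Dbt, Dld and Echs1 have 2 roles.

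Alternatives tried were a pseudocount of 0.5 or 0.1, a level filter of 5 FPKM or none, median-of-ratios scaling or quantile normalization, an untrended eBayes, a fit to only the 6 libraries of a comparison, a block for the library number, and each library left out in turn.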

Additional observations from a re-analysis of the deposited data

Results flagged for a closer look

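In 3 members the difference from untreated cells was called in opposite directions at 1 h and 12 h, and the change between the times was itself tested with limma as 12 h against 1 h. For Acsbg1 that change was 1.38 on the log2(FPKM + 1) scale (adjusted p 3.05e-11), with all 3 libraries at 12 h above the other 6; its lower call at 1 h was lost under quantile normalization. For Dbt it was 0.26 (adjusted p 0.000132), with the calls at 1 h and 12 h each lost without single libraries as given above. For Ldha it was 0.25 (adjusted p 5.72e-07), and -0.06 under quantile normalization.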

How the results depend on the processing

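The calls were set against 10 kinds of alternative. The number of members lower at 12 h was 30 to 31 when each library was left out and 36 under quantile normalization, and the median difference at 12 h was -0.46 there against -0.41. The 2 members called higher at 1 h became 1 under quantile normalization, 1 under eBayes without trend and 3 under median-of-ratios scaling. They numbered 1 to 3 when each library was left out. The members lower at 1 h numbered 16 to 22 without single libraries, 28 under quantile normalization and 18 under median-of-ratios scaling. Quantile normalization reversed Dlst (-0.02) and Pdhb (-0.09) at 1 h, Acly (-0.10), Cs (-0.08), Ldha (-0.24), Mdh2 (-0.07) and Pdhb (-0.08) at 12 h, and Ldha (-0.06) and Mdh2 (-0.04) between 12 h and 1 h; by construction it removes the shift of the summed level at 12 h, and no other cause was tested. eBayes without trend also ended the Ldha call at 12 h (adjusted p 0.0724). No scaling moved the median of all tested genes by more than 0.1.

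With the library number as a replicate block, the members called were 2 higher and 19 lower at 1 h, 14 and 30 at 12 h, and 15 and 30 between the times. Residuals of libraries with the same number correlated at -0.0666 to 0.128, so the numbers were not taken to pair the libraries. The exact depth of the libraries is unknown, and with 3 libraries a group, log2 differences near 0.1 are at the limit of what the fit could call.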
